A study of Homo sapiens with 14 samples.

Results

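The comparison described here is 1 arm of a genome-wide CRISPR activation screen in SW620 cells, a human colorectal cancer line. Guide abundance after 20 days in 0.38 µM oxaliplatin was set against that in cells grown untreated for the same time, over all guides and summarised per gene. Of the 18886 genes with a guide in the table, 18766 had at least 2 guides with enough counts to be tested, and 18320 had at least 3. The whole series holds 14 libraries in 4 screens, knockout and activation, of SW620 and RKO, another colorectal cancer line. Values from RKO activation at 1.9 µM oxaliplatin and SW620 knockout at 0.38 µM, each over its own untreated day 20, are also given below. Each condition was sequenced as 1 library, so no value below has a replicate check.

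All SW620 cells of this screen, controls included, carried dCas9-VP64 under blasticidin selection and the Calabrese guide library, delivered at a multiplicity of infection of about 0.3 with 3 days of puromycin. The multiplicity and the days of puromycin were the same in the RKO activation and SW620 knockout screens. The 4 libraries are day 0 (untreated), day 20 untreated, day 20 in 0.38 µM oxaliplatin and day 20 in 0.5 µM oxaliplatin. The labels give neither the number of clones nor the cultures behind each library. The untreated day 20 library was the shallowest, with 3647823 counts and a median of 62 per guide. The 0.38 µM library held 26141162 counts, the 0.5 µM library 11898882 and day 0 22152626.

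Oxaliplatin is a platinum drug that forms adducts on DNA and is used against colorectal cancer. In an activation screen, a catalytically dead Cas9 fused to the VP64 activator is led by a guide to the promoter of 1 gene and raises its transcription. A guide that grows more common under the drug marks a gene whose activation favoured the cells that carried it, and a guide that grows rarer marks the opposite. The title of the series names SLC43A1 (LAT3), a transporter of large neutral amino acids such as leucine, as a determinant of oxaliplatin sensitivity.

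The promoters of 3 genes are shown, as the genes whose guide counts the results turn on: TMEM171 and RNF24, whose 3 guides each rose, and SLC43A1, whose 3 guides each were nearly lost. Sequences are from RefSeq on GRCh38.p14, written 5′ to 3′ on the gene's own strand. The 25 capitals mark the first transcribed bases, and the 250 bases before them are in lower case. TMEM171 lies at chr5:73120325-73120599 (plus strand), RNF24 at chr20:4015534-4015808 (minus strand), and SLC43A1 has 2 start sites, at chr11:57514885-57515159 and chr11:57515678-57515952 (minus strand). The tables used here give guide numbers and no protospacers, so where a guide lies in these windows is not shown.
TMEM171: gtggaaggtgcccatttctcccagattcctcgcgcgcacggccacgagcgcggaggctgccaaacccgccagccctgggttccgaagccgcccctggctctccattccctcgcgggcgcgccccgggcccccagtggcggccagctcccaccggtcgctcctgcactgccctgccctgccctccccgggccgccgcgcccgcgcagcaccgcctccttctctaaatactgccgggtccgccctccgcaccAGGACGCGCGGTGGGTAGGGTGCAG
RNF24: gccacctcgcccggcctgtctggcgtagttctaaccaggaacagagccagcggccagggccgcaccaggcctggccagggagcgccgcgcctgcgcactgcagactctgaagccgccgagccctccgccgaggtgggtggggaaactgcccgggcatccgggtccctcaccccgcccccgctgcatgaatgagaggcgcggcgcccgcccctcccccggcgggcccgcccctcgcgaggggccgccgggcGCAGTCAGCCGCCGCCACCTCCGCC
SLC43A1, first window: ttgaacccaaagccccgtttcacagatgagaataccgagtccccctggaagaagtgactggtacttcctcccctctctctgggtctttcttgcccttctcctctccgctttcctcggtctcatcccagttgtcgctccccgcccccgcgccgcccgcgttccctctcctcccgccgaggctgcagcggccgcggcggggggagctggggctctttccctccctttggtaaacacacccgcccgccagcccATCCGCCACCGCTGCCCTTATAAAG
SLC43A1, second window: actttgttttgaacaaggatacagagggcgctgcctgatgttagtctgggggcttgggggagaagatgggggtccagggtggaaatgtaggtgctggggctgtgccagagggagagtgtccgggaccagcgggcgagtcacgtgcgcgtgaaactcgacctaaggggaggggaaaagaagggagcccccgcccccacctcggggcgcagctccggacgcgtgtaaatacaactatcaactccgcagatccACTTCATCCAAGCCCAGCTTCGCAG

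In the full 300-base windows, 50 transcribed bases included, the dinucleotide CG occurred 37 times for TMEM171 and 38 times for RNF24. The median over 21045 promoter windows of tested genes was 21, and 87.1% of them held as few CG as TMEM171 or fewer. The SLC43A1 windows held 23 and 19. The letters TATAAA, searched on both strands, were present in the first SLC43A1 window and absent from the second. In the first they lay within the capitals, after the annotated start and not before it. They occurred in 9.38% of all windows, at any position. The C9 window, of another gene whose guides rose, held only 2 CG, so the promoters of the enriched genes were not of 1 kind.

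Counts were scaled by median-ratio size factors, and the fold of a guide is the log2 ratio of scaled counts with 5 added to each. Guide folds spread far more widely under the drug than without it. Among 495 non-targeting guides, which match no gene, the SD of the log2 fold was 0.96 at 0.38 µM over untreated day 20, where counting error alone gives 0.19. It was 0.33 for untreated day 20 over day 0. Of targeting guides, 6.71% were at least 4-fold lower and 3.63% were at least 4-fold higher, against 2.42% (95% Wilson interval 1.39 to 4.19%) and 2.02% (1.10 to 3.68%) of non-targeting guides. Guides at least 16-fold lower made up 0.547% of targeting guides and 0 of 495 non-targeting guides, which allows up to 0.770%. The highest 1% of guides held 7.19% of counts at 0.38 µM and 2.43% in untreated day 20.

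**Figure D1:**
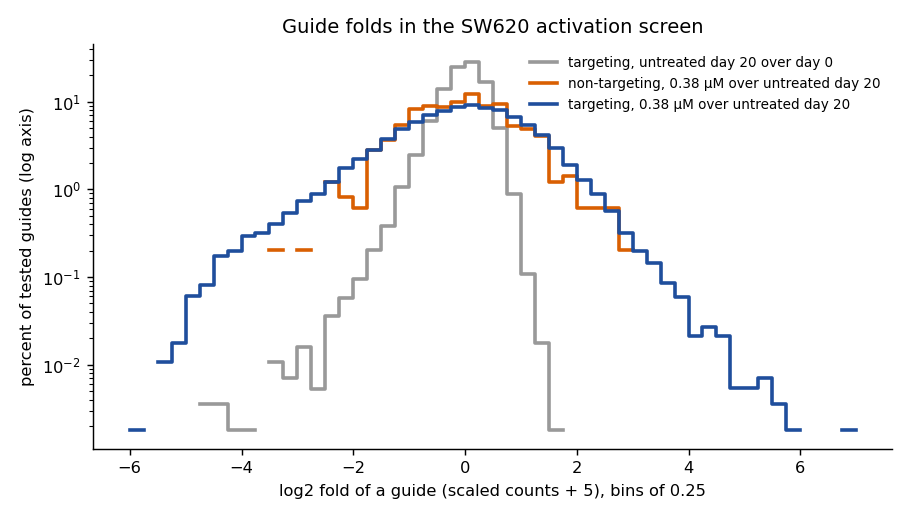
Histogram of guide log2 folds (x axis, bins of 0.25) as a percent of tested guides (log y axis). Blue, 55975 targeting guides at 0.38 µM over untreated day 20; orange, 495 non-targeting guides in the same comparison; grey, targeting guides in untreated day 20 over day 0, whose folds are the narrowest.

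Single guides account for most of the extreme values. Of 18318 genes with exactly 3 tested guides, 1787 had 1 guide at least 4-fold higher, 87 had 2 and 15 had 3. Towards lower counts these numbers were 3169, 239 and 9. A gene-level call therefore asked whether the guides of a gene ranked high together, by robust rank aggregation with an exact p, adjusted by Benjamini-Hochberg over all 18766 genes and called below 0.10. This test compares 2 libraries, and guides to 1 gene are not replicates of a condition.

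The calls depended on how guide folds were put on 1 scale before ranking, so 4 ways are given side by side. In bins of the mean scaled count, the stated setting of this comparison, 9 genes were enriched (0.0480% of genes tested) and 0 depleted (0%), with 969 and 977 genes at an unadjusted exact p below 0.05. These bins contain the treated count itself: the median log2 fold ran from -1.66 in the lowest bin to 2.15 in the highest, against 0.59 and -0.20 in bins of the control count. Each fold is centred and scaled within its bin before all guides are ranked together. A guide in the highest bin is thus measured from the middle of guides that mostly rose. In bins of the control count, 7 genes were enriched (0.0373%) and 1 was depleted (0.00533%). Divided by counting error, 7 were enriched (0.0373%) and 1 depleted (0.00533%). With no standardising, 20 were enriched (0.107%) and 1 depleted (0.00533%). In all, 22 genes were enriched in at least 1 way, of which 1 passed in 4 ways, 6 in 3, 6 in 2 and 9 in 1. Sorting genes by the number of ways was decided after these results were seen.

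**Figure D2:**
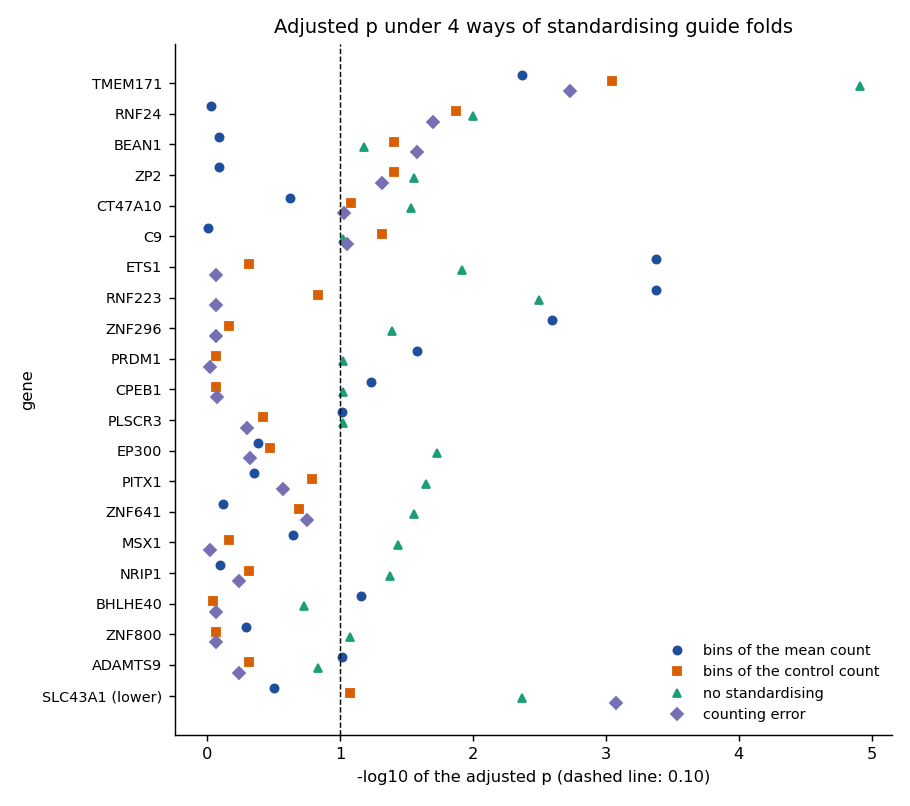
Each row is a gene described in the text and the x axis is -log10 of its adjusted p in 0.38 µM over untreated day 20, so points right of the dashed line pass 0.10. Circles, bins of the mean count; squares, bins of the control count; triangles, no standardising; diamonds, counting error. TMEM171 alone has all 4 symbols right of the line; SLC43A1, at the bottom, is tested for depletion.

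TMEM171, which encodes a transmembrane protein, was the gene enriched in all 4 ways. Its guides had 16, 21 and 26 counts in untreated day 20 and 5946, 5748 and 3248 at 0.38 µM, and 2603, 1216 and 1838 at 0.5 µM. Day 0 counts were 167, 234 and 318. All 3 guides were thus high in both treated libraries and in neither untreated one. The guides' log2 folds were 5.90, 5.50 and 4.39, the last with an exact 95% interval of 3.92 to 5.09 (without the added count; counting error only). The exact rank test gave adjusted p values of 0.00428 in bins of the mean count and 0.000894 in bins of the control count.

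Another 6 genes passed in every way but bins of the mean count, of which 5 are described here: RNF24, BEAN1, ZP2, C9 and CT47A10. ZP2 and C9 are outside the rule by which genes were named and were chosen after their values were seen.

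RNF24, a RING finger protein, had 3 guides of like size. Counts rose from 50, 64 and 47 in untreated day 20 to 2312, 2546 and 1889 at 0.38 µM, which gave log2 folds of 3.00, 2.79 and 2.80. At 0.5 µM they were 3855, 1245 and 985. No RNF24 guide in either treated library overlapped with either control on the scaled count. The adjusted exact p was 0.939 in bins of the mean count and 0.0135 in bins of the control count.

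BEAN1, whose name marks a gene expressed in brain, rose through 3 guides of unequal size, with log2 folds of 5.34, 2.27 and 2.19. C9, the last component of the complement attack complex, had folds of 3.45, 2.53 and 2.07. CT47A10, a cancer/testis antigen, had folds of 4.29, 2.48 and 2.42. It belongs to a family of near-identical copies, so its guides may count for several of them. ZP2, a glycoprotein of the egg coat, rose through 2 of its 3 guides only: their counts went from 64 and 54 to 15816 and 4547, while the remaining guide went from 48 to 24 counts in a far deeper library. At 0.5 µM that guide had 1456 counts. In bins of the control count the adjusted exact p was 0.0392 for BEAN1 and ZP2, 0.0483 for C9 and 0.0834 for CT47A10.

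**Figure D3:**
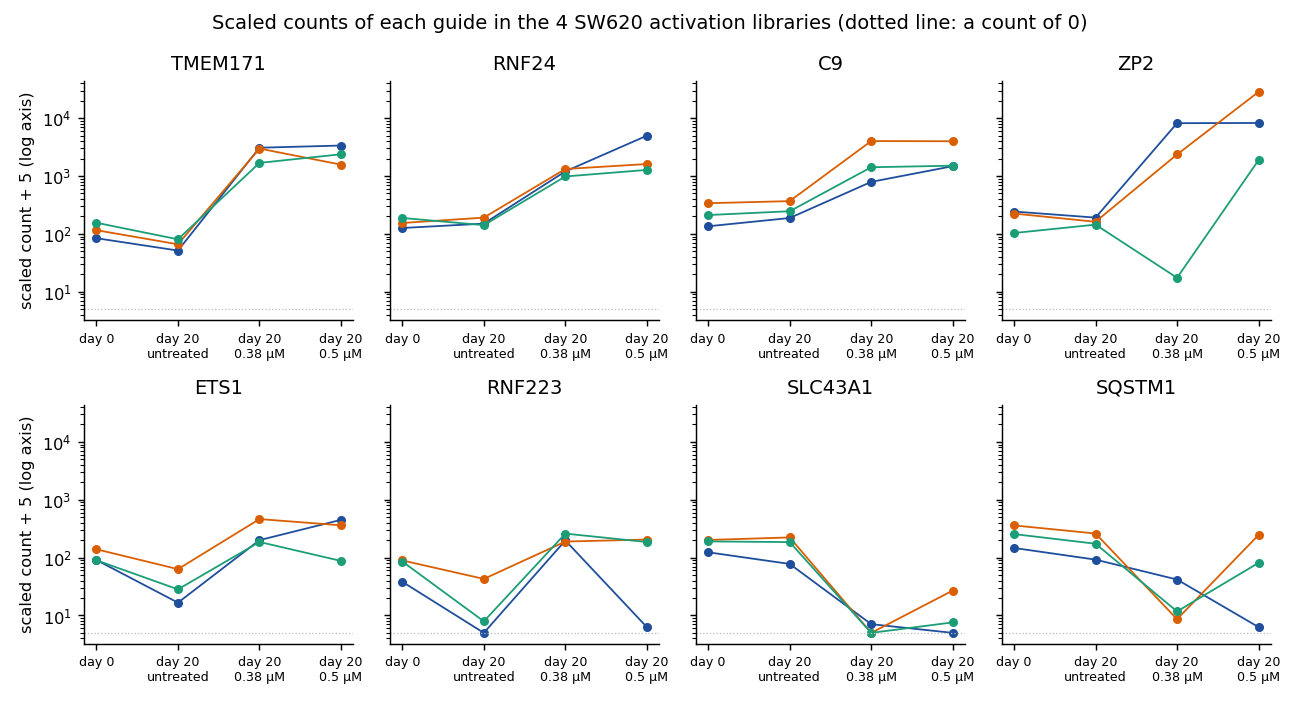
Scaled count of each guide plus 5 (log y axis) in the 4 libraries (x axis), with 1 line per guide and 1 panel per gene; the dotted line marks a count of 0. The 3 TMEM171, RNF24 and C9 guides are high in both oxaliplatin libraries. The ETS1 and RNF223 guides dip in untreated day 20, as do the TMEM171 guides to a smaller extent. The SLC43A1 guides approach 0 at both doses.

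The other 8 genes called in bins of the mean count were not called in bins of the control count: ETS1, RNF223, ZNF296, PRDM1, CPEB1, BHLHE40, PLSCR3 and ADAMTS9. In each of them the untreated day 20 library lay below day 0, with a median log2 fold of -1.02 over the 8 and 0 of 8 above 0, where 51.3% of all genes were above 0. The calls used that same library as their control, so a low value in it also raises the fold that was called. All genes, which were not chosen this way, are therefore not a like background. TMEM171 also lay below day 0 there, with a median of -0.81 (guides -0.95 to -0.71). What part the low untreated day 20 counts have in the calls was not tested. ETS1, a transcription factor, had 4, 20 and 8 counts in untreated day 20, 377, 884 and 350 at 0.38 µM and 181, 283 and 179 at day 0. Its guides rose by 3.59, 2.87 and 2.72 over untreated day 20 (adjusted exact p = 0.000423 in bins of the mean count, 0.484 in bins of the control count). Over day 0 the median was 1.14.

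RNF223, another RING finger protein, had 0, 13 and 1 counts in untreated day 20 and 372, 356 and 492 at 0.38 µM. Its median log2 fold of 5.04 therefore rests on a control with almost no counts, and over day 0 it was 1.60 (guides 1.08 to 2.37). ZNF296, a zinc finger protein, had a median of 2.50 over untreated day 20 and 1.23 over day 0. The RefSeq start of GEMIN7 lies within 1000 bases of that of ZNF296, so guides to 1 may lie near the other. The same limit holds for TMEM171 (neighbour LOC124901001), CPEB1 (CPEB1-AS1) and BHLHE40 (BHLHE40-AS1). PRDM1, the repressor known for driving plasma cell differentiation, had 1, 1 and 5 counts in untreated day 20. Its median was 3.01 over that library and 0.29 over day 0, close to no change.

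CPEB1, which binds the polyadenylation element of mRNAs in the cytoplasm, had a median of 2.08 with guides from 2.07 to 2.28. BHLHE40, a transcriptional repressor tied to the circadian clock, had 2.18. PLSCR3, a phospholipid scramblase of mitochondria, had 2.09. ADAMTS9, a secreted metalloprotease, had 2.81. Over day 0 the medians were 1.11 for CPEB1, 1.26 for BHLHE40, 1.72 for PLSCR3 and 2.54 for ADAMTS9. The adjusted exact p of these genes in bins of the mean count lay between 0.059 and 0.0969. MSX1, the next gene in that order, did not pass there (adjusted exact p = 0.228), and its 3 guides ran from -1.83 to 4.63.

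Some genes passed with no standardising alone, of which EP300, NRIP1 and ZNF800 were named after their values were seen. EP300, a histone acetyltransferase, had a median of 4.14 with guides from 1.70 to 4.53, and PITX1, a homeobox factor, 2.70 with guides from 2.52 to 3.66. ZNF641 had 3.24, NRIP1, a nuclear receptor corepressor, 3.65, MSX1 3.75 and ZNF800 2.27. Their adjusted exact p with no standardising lay between 0.0186 for EP300 and 0.0842 for ZNF800. In bins of the control count the same genes lay between 0.163 (PITX1) and 0.855 (ZNF800). At 0.5 µM over day 0, which shares no library with this comparison, ZNF641 had a median of -0.52 and EP300 0.24. There NRIP1 had 3.16, PITX1 2.40, MSX1 1.81 and ZNF800 1.64.

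SLC43A1 had the largest loss of any gene with 3 tested guides, by its weakest guide. Its guides had 62, 75 and 25 counts in untreated day 20 and 0, 0 and 4 counts in the 0.38 µM library, although that library was the deeper one. At 0.5 µM they had 2, 17 and 0 counts, and at day 0 391, 415 and 250. Every guide was thus near 0 in both treated libraries and well measured in both controls. With a floor of 3 counts for each guide at 0, the first guide was at least 116-fold lower than in untreated day 20, and the second at least 140.3-fold lower. The guide with 4 counts had a log2 ratio of -5.13 (exact 95% interval -7.12 to -3.60). The median log2 fold with 5 added was -5.21.

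The call on SLC43A1 depended on the way of standardising. It did not pass in bins of the mean count (adjusted exact p = 0.318). It was the 1 gene depleted in bins of the control count (adjusted exact p = 0.0844), with no standardising (0.00428) and by counting error (0.000847). Against day 0, which is far deeper than untreated day 20, SLC43A1 was depleted in all 4 ways (adjusted exact p between 0.00132 and 0.0336). Untreated growth left it in place, with a median of -0.04 for untreated day 20 over day 0.

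The other genes with the smallest p for depletion did not pass in any of the 4 ways. FAM3A had a median of -3.14 but 1 guide at 1.77. MYT1, a neural zinc finger factor, had guides from -3.44 to -2.04, and UBP1, a transcription factor, from -4.45 to -2.26. CXCL13, a B cell chemokine, had guides from -3.99 to -2.10, and CKMT2, a mitochondrial creatine kinase of muscle, from -2.98 to -2.25. The sign was shared by all 3 guides in these last 4 genes. DOK3, an adapter protein, had a median of only -0.21, with 1 guide at -5.47. ODF4 of the sperm tail had 1 guide at -5.91 and a median of -1.41. MBD6 had a median of -3.69 with 1 guide at 1.96, and RPLP1 of the ribosomal stalk had -2.09. Their adjusted exact p in bins of the mean count lay between 0.318 and 0.711.

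With no test, a rule of size took genes whose guides, at least 3, were all at least 2-fold changed. It gave 142 genes on the higher side (0.775% of 18320) and 184 on the lower side (1.00%). By the weakest guide, genes at the head of the higher side included TMEM171 (4.39), RNF24 (2.79), ETS1 (2.72), PITX1 (2.52), ZNF641 (2.44) and CT47A10 (2.42), in log2 folds. The lower side was led by SLC43A1 (-3.46), and the next was KRTAP5-1, a hair keratin-associated protein, at -2.27. UBP1, CKMT2, CXCL13 and FOXA3, a forkhead factor of endoderm, followed at -2.26, -2.25, -2.10 and -2.10. OR52H1, an olfactory receptor, was also on this list at -2.02. Among 1102 guides to olfactory receptors, genes with no known role in these cells, 8.80% were at least 4-fold lower, against 6.71% of all targeting guides.

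With day 0 as the control, which gives more counts but adds 20 days of growth, bins of the mean count gave 0 enriched genes (0%, with 997 at an unadjusted exact p below 0.05) and 7 depleted genes (0.0373%). The 7 were EIF2AK2, RTL5, SQSTM1, CKMT2, SAMHD1, SLC43A1 and FOXA3, with RTL5 and SAMHD1 named after their values were seen. EIF2AK2 (PKR), a kinase that halts translation on double-stranded RNA, had 363, 359 and 466 counts at day 0 and 4, 0 and 11 at 0.38 µM. Its guides were already low in untreated day 20, at 4, 19 and 15. SQSTM1 (p62), the autophagy receptor that binds KEAP1, had 299, 748 and 527 counts at day 0 and 71, 7 and 13 at 0.38 µM. SAMHD1, which breaks down the nucleotides for DNA synthesis, had 498, 571 and 613 counts at day 0 and 14, 116 and 21 at 0.38 µM. Over untreated day 20 the medians were -3.89 for SQSTM1 and -3.35 for SAMHD1, and neither passed in any way. MYC, the growth-driving transcription factor, had -4.40 and did not pass in any way (adjusted exact p 0.711 in bins of the mean count).

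In bins of the control count, 7 of 18775 genes tested were enriched over day 0 and 8 were depleted. The enriched genes included TMEM171, BEAN1, RNF24, C9, ZP2 and FAM117B, the last of which was chosen after its values were seen. The first 5 were also among the genes enriched in most ways over untreated day 20, with which this comparison shares the treated library. TMEM171 had a median of 4.68 over day 0, ZP2 3.39, RNF24 3.10, BEAN1 2.82 and C9 2.74. ETS1, RNF223, ZNF296, PRDM1, CPEB1, BHLHE40, PLSCR3 and ADAMTS9 passed over day 0 in none of the 4 ways.

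The 0.5 µM library over day 0 shares no library with 0.38 µM over untreated day 20, although all came from cells given the same guide pool. The 7 genes enriched in 3 or 4 ways were all above 0 there, with a median log2 fold of 3.45, where 49.6% of all genes were above 0. ZP2 had 5.08 (guides 4.18 to 6.99), TMEM171 3.93 (3.76 to 5.32), C9 3.45, BEAN1 3.42 and RNF24 3.38. CT47A10 was lowest at 1.52, with 1 guide at -1.22. Of the 8 genes called in bins of the mean count and not of the control count, 7 were above 0 with a median of 1.27, and CPEB1 was at -0.30. Of the 142 genes with every guide at least 2-fold higher, 71.8% were above 0, and of the 184 with every guide at least 2-fold lower, 33.2% were. SLC43A1 had -4.63 (guides -4.65 to -2.90).

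**Figure D4:**
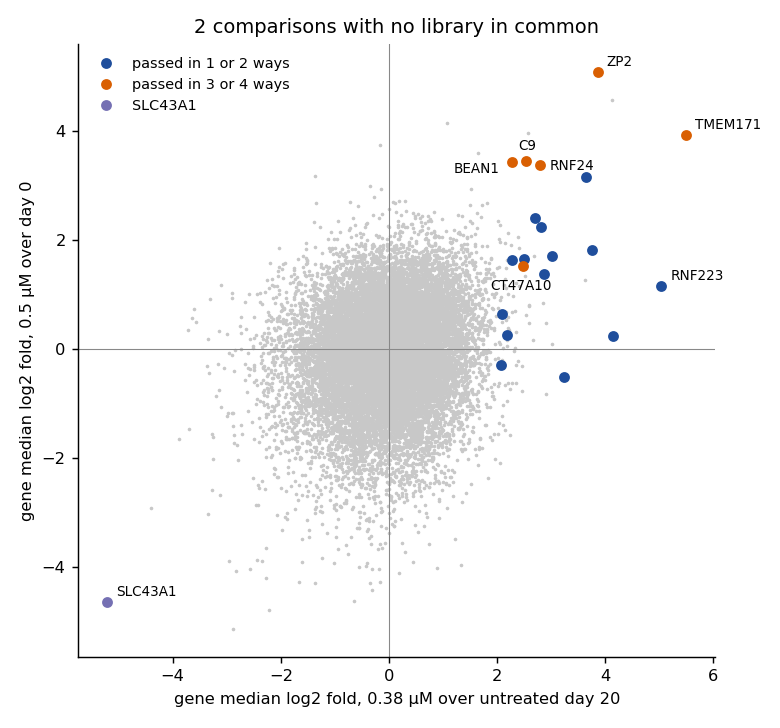
Each dot is a gene; the x axis is its median guide log2 fold at 0.38 µM over untreated day 20 and the y axis that at 0.5 µM over day 0. Orange, the 6 described genes enriched in 3 or 4 ways, all in the upper right; blue, the other described genes enriched in any way; purple, SLC43A1 at the lower left.

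These 2 comparisons were also set side by side guide by guide. Of 2020 targeting guides at least 4-fold higher at 0.38 µM over untreated day 20, 351 were also at least 4-fold higher at 0.5 µM over day 0. That is 17.4% of the first list and 12.5% of the second, where 5.04% of all 55899 guides tested in both were past that fold. On the lower side 709 of 3750 guides were shared, 18.9% and 13.1% of the lists, against 9.69% of all guides.

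In other screens of the series, whose line, dose or library differ, the same genes gave the following values, set side by side without a test. In RKO activation at 1.9 µM over untreated day 20, the median log2 fold was 9.71 for TMEM171 (guides 0.75 to 10.34), 8.27 for RNF223 (7.80 to 8.58) and 5.88 for RNF24. ETS1 had -0.81 and EP300 -5.12. Of the other genes called in bins of the mean count, PRDM1 had -4.04, ADAMTS9 -3.82 (2 guides), BHLHE40 -3.08 and PLSCR3 -2.16. ZNF296 had 3.88 (guides -3.75 to 4.30) and CPEB1 3.78 (guides -2.22 to 4.61). Single guides lay far apart in that screen, as UBP1, with a median of 1.10, had guides from -1.08 to 9.59. SLC43A1 had -5.04 in RKO, over 2 guides. In the SW620 knockout screen at 0.38 µM, where guides inactivate the gene in place of activating it, SLC43A1 had a median of 8.19 over 4 guides (7.41 to 8.47). Its guides thus moved in opposite directions in the knockout and the activation screens. TMEM171 had 0.06 there, and ETS1 -2.84.

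The series' gene of interest moves amino acids, so a list of large neutral amino acid transporters and related genes was set beside it. Of the 14 other genes of this list, 0 were called in any of the 4 ways and 2 had a median above 0 (all genes, 50.5%). The median log2 fold of the 14 was -0.71 (all genes, 0.01). With SLC43A1 counted in, the median of the 15 was -0.80. SLC3A2, the heavy chain that LAT1 and LAT2 need at the membrane, had -1.88, SLC16A10, an aromatic amino acid transporter, -1.79, SLC7A8 (LAT2) -1.64 and SLC43A2 (LAT4) -1.37. SLC7A5 (LAT1) itself was near 0 at -0.15. SLC6A19, the neutral amino acid transporter of the gut, was the highest at 1.31. None of these passed the test. Of the 13 others with at least 3 tested guides, SLC6A15 and SLC7A8 had every guide at least 2-fold lower, a rule that 1.00% of all genes met. The 30 other amino acid transporters had a median of -0.11, with 13 above 0. At 0.38 µM over day 0 the median of the 15 was -1.08, with 5 above 0. At 0.5 µM over day 0 the median was -0.59 for the 15 and 0.21 for the 30. SLC3A2 was at 0.30 there and SLC43A1 at -4.63.

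Genes of platinum and copper transport had a median of -0.46 with 3 of 14 above 0. The organic cation transporters SLC22A3 and SLC22A2, which can carry oxaliplatin into cells, had -1.48 and -1.33, and the copper importer SLC31A1 had -0.07. The ABC exporters had -0.22 (5 of 12 above 0), with ABCC4 at 1.51 and ABCC1 at 1.34. Metallothioneins, small proteins that bind metals, had 0.48 (8 of 12), with MT3 at 2.20 and MT4 at 1.50, in each of which every guide was at least 2-fold higher (0.775% of all genes met that rule). Glutathione S-transferases had 0.41 (14 of 19), with GSTZ1 at 1.95 and GSTP1 at 1.64. The list of NRF2 and glutathione genes had -0.34 (7 of 24), with NFE2L2, which encodes NRF2, at -2.19 and SQSTM1 at -3.89. At 0.5 µM over day 0 these list medians kept their sign, from -0.61 for NRF2 and glutathione genes to 0.73 for metallothioneins. Among members, MT4 (-1.12) and SLC22A2 (0.58) were of opposite sign there, while MT3 (2.13), GSTP1 (3.59) and NFE2L2 (-1.97) kept theirs. No member of these lists was called in bins of the mean count.

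Among DNA repair lists, the Fanconi anaemia pathway, which unhooks crosslinks, had a median of -0.44 (7 of 20 above 0), with FANCF at -1.90. Nucleotide excision repair, which removes platinum adducts, had 0.06 (12 of 23), with XPC, its damage sensor, at 1.38 and ERCC3 at -1.79. Homologous recombination had 0.14 (13 of 22), translesion synthesis 0.33 (9 of 14), with POLH, a polymerase that copies past adducts, at 1.26, and mismatch repair 0.34 (6 of 7). Cyclins and cell cycle kinases had 0.51 (12 of 15), with CDC25A at 1.72 and E2F1 at -2.39. Inhibitors of cyclin-dependent kinases had -0.26 (5 of 14), with GADD45G at -2.05 and CDKN1A (p21) at -1.15. Pro-death BCL2 relatives had -0.06 (5 of 12), with BIK at -2.57 and BBC3 (PUMA) at -1.95. Suppressors of mTORC1 had -0.28 (7 of 17), with TSC1 at -2.89 and SESN2 at -2.03. At 0.5 µM over day 0 the list median was of opposite sign for the Fanconi anaemia pathway (0.29), cyclins (-0.32) and suppressors of mTORC1 (0.15). The other lists of this paragraph kept their sign. Nucleotide excision repair had 0.27, homologous recombination 0.10, translesion synthesis 0.08 and mismatch repair 0.15. Inhibitors of cyclin-dependent kinases had -0.43 and pro-death BCL2 relatives -1.0. Of the members named, XPC (-1.60), ERCC3 (0.19), E2F1 (0.87) and SESN2 (0.58) were of opposite sign at 0.5 µM over day 0, and the others kept theirs. XPC, CDKN1A and BIK had 2 tested guides each at 0.38 µM over untreated day 20. No member of any of the 31 lists was called in bins of the mean count, where 0.0480% of all genes were enriched and 0% depleted. In the other 3 ways SLC43A1 was the 1 list member called. All lists were chosen with earlier results of these data known. Scaling by library totals moved the median of all genes to -0.33. List medians relative to all genes were little affected, but nucleotide excision repair, homologous recombination, translesion synthesis and mismatch repair then had medians below 0.

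**Figure D5:**
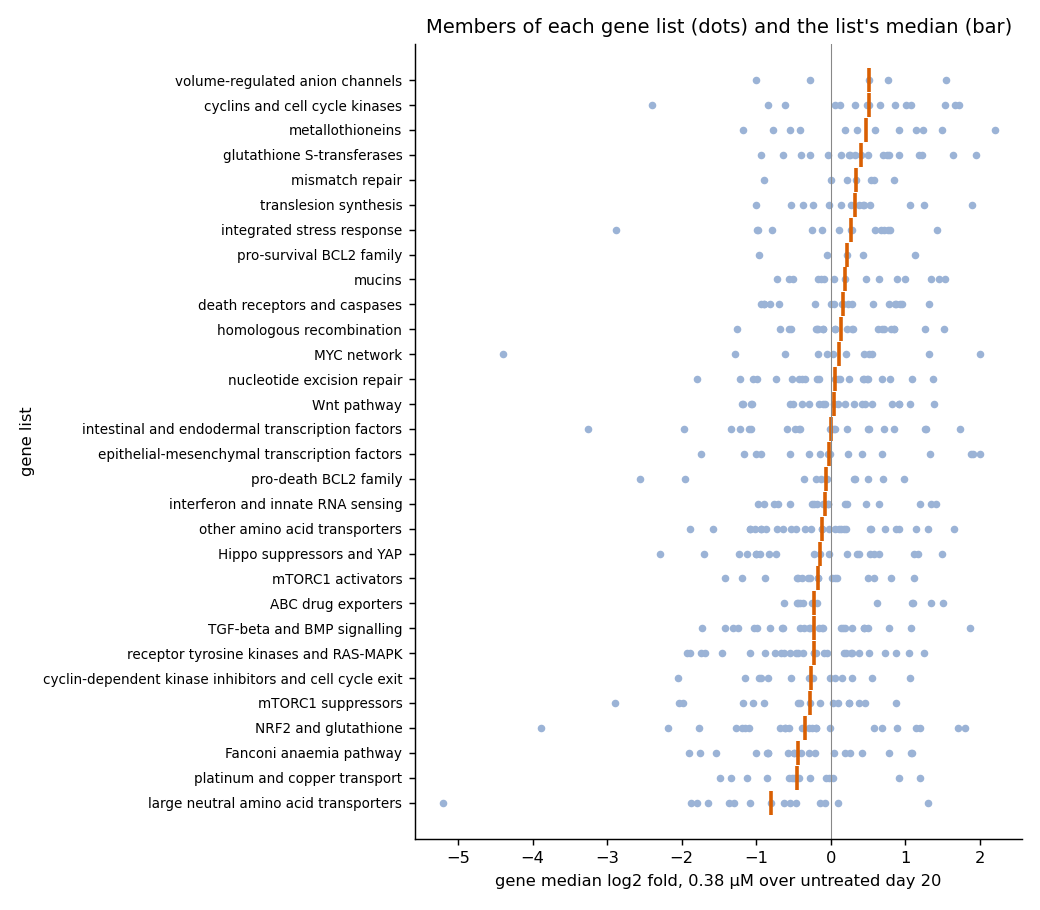
Each dot is a gene's median guide log2 fold at 0.38 µM over untreated day 20 (x axis), by gene list (y axis), and the bar is the list's median. The large neutral amino acid transporters lie lowest, at -0.80 with SLC43A1 far to the left, and the highest medians are near 0.5.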

How the data were processed

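Guides were amplified from genomic DNA and sequenced. The authors deposited raw counts per guide as whole numbers. The submitters' processing notes name cutadapt 4.0 and MAGeCK 0.5.7, with roles and settings not given in the sources used here. Counts were scaled by median-ratio size factors over the 4 libraries, with a pseudocount of 5 and a mean scaled count of at least 20. Folds were standardised in 50 bins of the mean scaled count. Guides of a gene (at least 2) were combined by robust rank aggregation with rank shares up to 0.25. The one-sided p is exact for uniform ranks, adjusted by Benjamini-Hochberg and called below 0.10. Tested on simulated data, bins of the mean count missed most raised genes, whereas the other 3 ways of standardising found most of them. There, all guides of every raised gene had the same large effect, with noise set near the SD of non-targeting guides. The untreated library was drawn with counting error only. In the data, targeting guides had an SD of 1.25 at 0.38 µM over untreated day 20. Recovery in these data may therefore differ and was not measured. Bins of the mean count were kept as the stated setting, and the other ways are given beside them. With 1 library per condition, edgeR leaves no residual degrees of freedom for a test, and its version 4.0.16 served for TMM factors only. Intervals and the floor of 3 counts cover counting error only, since amplified reads carry no molecular identifiers and do not each stand for a molecule.

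Named genes were the called genes or otherwise the 10 with the smallest p per direction, SLC43A1, for each list its called members or otherwise the 2 with the largest fold, and the 10 genes per direction with the largest fold of the weakest guide. Members and lists were chosen with earlier results of these data known. Of 18886 symbols, 17939 were current in RefSeq, 828 were older names and 119 had no unique match. Python 3.11.15, numpy 2.4.6, pandas 2.3.3 and scipy 1.17.1 were used. Some results are not reported here.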

Additional observations from a re-analysis of the deposited data

How the results depend on the processing

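Calls changed with the way of standardising, with the control and without the strongest guide. Of the 9 genes enriched in bins of the mean count, 1 was among the 7 in bins of the control count, 1 among the 7 by counting error and 7 among the 20 with no standardising. Depleted genes numbered 1 in bins of the control count, 1 with no standardising, 1 by counting error and 1 with a pseudocount of 1. With day 0 as control, and with day 0 and untreated day 20 summed, 0 genes were enriched and 7 depleted. Without each gene's strongest guide 0 genes were enriched, and at an adjusted p below 0.05 there were 5. Library totals gave 45 genes with every guide at least 2-fold higher and 451 lower, and a 4-fold rule gave 15 and 9. With one setting changed at a time, TMEM171 passed in 15 of 18 settings, not with either control that holds day 0 nor without its strongest guide, and SLC43A1 passed for depletion in 6 of 18. No called gene changed direction under these settings. Size factors from the 2 libraries alone, added after seeing the data, gave 8 enriched and 0 depleted genes. The shallow untreated day 20 library limits every fold against it. No paired analysis was possible because each condition has 1 library.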

Other observations

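The most abundant guides at 0.38 µM were mostly lone guides. One RNF122 guide led with 40739 counts and also led at day 0 with 3049, and it had 33411 at 0.5 µM. One MFSD11 guide had 28468 counts at 0.38 µM, 39 in untreated day 20 and 331 at 0.5 µM, while the gene's median log2 fold was 0.56. One PI3 guide had 12058 counts at 0.38 µM and 145 at 0.5 µM. These genes were chosen after their values were seen.

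Transcription factors of intestine and endoderm had a list median of 0.01 (11 of 22 above 0), with FOXA3 at -3.26 and HNF4A, a master factor of gut epithelium, at -1.97. Factors of the epithelial-mesenchymal transition had -0.02 (7 of 16), with SNAI1 at 2.01 and ESRP2 at 1.92. In the MYC network the median was 0.12 (7 of 12), with MYC at -4.40 and MXI1, an antagonist of MYC, at 2.01. Hippo suppressors with YAP had -0.15 (9 of 21), with AMOTL1 at -2.29 and WWTR1 (TAZ) at -1.70. No member of these lists was called in bins of the mean count. Scaled by library totals, all 4 list medians were below 0. At 0.5 µM over day 0 the list medians were -0.67, -0.32, 0.59 and 0.25, in the order given. SNAI1 (-0.68), AMOTL1 (1.05) and WWTR1 (0.07) were of opposite sign there, and the other members named kept theirs.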
